A study of Mus musculus with 19 samples.

Results

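Lipid droplets are the cell's store of triglyceride, and fasting floods organs such as the kidney with fatty acids from adipose tissue. Perilipins coat the droplet and limit access of lipases, acyltransferases fill it, and the lipase encoded by *Pnpla2*, held back by the protein of *G0s2*, empties it. Several genes of this machinery are known targets of PPARα, the fatty acid-activated nuclear receptor that is strongly expressed in proximal tubules. Kidney transcripts of 10 such genes are described here: the droplet coat genes *Plin2*, *Plin4* and *Plin5*, the lipolysis genes *Pnpla2* and *G0s2*, the triglyceride synthases *Dgat1* and *Dgat2*, the fatty acid carrier *Cd36*, the lipoprotein lipase inhibitor *Angptl4*, and *Vnn1*, a pantetheinase of coenzyme A turnover. They were chosen by name, with earlier results of these data known. Every probe set (the set of oligonucleotides that reads 1 transcript) annotated to one of them alone was used. This gave 16 of the 45141 probe sets of the array and 10 of 17097 named genes. Because of that choice, the shares of all genes set beside their counts below are description and no test.

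The kidneys came from 19 male mice, each on 1 array, and no mouse had undergone ischemia. The aged-overweight cohort consisted of FVB-C57BL/6J F1 hybrids with a mean age of 73 weeks and a weight of about 47 g, 5 fed ad libitum and 5 without food for 3 days. Young-lean mice were C57BL/6J animals of 10 to 14 weeks and 22 to 25 g, 5 fed ad libitum and 4 without food for 3 days. All mice had free access to water, and the labels name no introduced allele and no drug in any group. Age, strain and body weight changed together between these cohorts and cannot be told apart. RNA came from pieces of whole kidney, so that more cells of one type and more RNA per cell cannot be told apart either.

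Values are log2 levels normalized by the RMA algorithm. Array medians lay between 4.15 and 4.21 in young and between 3.44 and 3.49 in aged mice, so the ages seem to have been normalized separately. Levels were therefore compared only within an age and only within a probe set. Arrays of one group correlated at 0.988 to 0.997. Of 10 listed kidney markers 7 had a probe set, and the log2 of their summed linear levels lay between 13.6 and 14.3 in all groups, while 7 of 8 listed adrenal markers summed to 5.92 to 6.41 and none of them rose or fell with fasting. Of the 7 kidney markers 1 fell in aged mice, the glucose transporter *Slc5a2* (-1.09), where 4.84% of all genes fell. In young mice 2 fell, *Slc5a2* (-0.89) and the collecting duct water channel *Aqp2* (-0.53), where 12.5% of all genes fell. Both genes are named because of the small count. A gene was taken at its brightest probe set unless stated otherwise, and "rose" or "fell" means an adjusted p of at most 0.05 in limma, adjusted for all probe sets of the array by the Benjamini-Hochberg method, which is an FDR of 5%.

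Promoter sequence is shown for 3 members because their transcripts are those that the comparisons below turn on: the common droplet coat gene, the coat gene with the largest rise in young mice, and the lipase inhibitor whose rise differed between the ages. The windows are from RefSeq, build GRCm38.p6, 5′ to 3′ on the gene's strand. Each ends at the last base before the gene's annotated start, and capitals mark AGGTCA or its reverse complement TGACCT, the half-site that nuclear receptors of the PPAR type bind.
Plin2, chr4:86670218-86670309, minus strand: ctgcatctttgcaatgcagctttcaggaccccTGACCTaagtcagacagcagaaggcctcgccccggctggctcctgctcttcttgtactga
Plin5, chr17:56117607-56117798, minus strand: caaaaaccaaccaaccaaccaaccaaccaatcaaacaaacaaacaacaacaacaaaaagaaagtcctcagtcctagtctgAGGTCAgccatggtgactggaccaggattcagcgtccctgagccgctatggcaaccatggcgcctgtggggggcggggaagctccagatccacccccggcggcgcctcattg
G0s2, chr1:193273189-193273438, minus strand: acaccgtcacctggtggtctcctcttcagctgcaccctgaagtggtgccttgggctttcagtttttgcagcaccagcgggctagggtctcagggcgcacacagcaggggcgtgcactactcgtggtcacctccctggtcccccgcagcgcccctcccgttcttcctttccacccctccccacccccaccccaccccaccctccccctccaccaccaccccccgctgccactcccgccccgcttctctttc

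Promoter windows of 250 bases before to 50 bases after a start were matched for 6 of the 10 members, with 7 windows because *Plin5* has a pair of starts. A half-site on either strand was in 4 of the 7 windows, those of *Plin2*, *Cd36* and both starts of *Plin5*, and in 16.3% of all 32851 windows. Neither the *Plin4*, the *G0s2* nor the *Pnpla2* window held one. The full direct repeat searched, AGGNCA followed by 1 base and AGGNCA again, was in 0 of the 7 windows and in 0.381% of all windows, and with AGGTCA in both places it was in 0 of 7 and 0.0396%. The forkhead motif GTAAACA was likewise in 0 of 7 windows and in 3.65% of all. The glucocorticoid receptor motif GNACA, 3 bases, TGTNC was in 0 of 7 and in 0.475%. All were searched on both strands. A match in these letters is a description of the window and no evidence of binding, and the half-site was searched after the other motifs had been counted.

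The genes lie on several chromosomes of GRCm38.p6. *Plin4* (chr17:56100587-56109948) and *Plin5* (chr17:56111597-56117606) are neighbours with 1648 bases between them, and *Angptl4* (chr17:33774900-33781575) is on the same chromosome. *Plin2* is at chr4:86626910-86670217, *G0s2* at chr1:193272160-193273188, *Pnpla2* at chr7:141455188-141460743 and *Dgat2* at chr7:99153663-99182713. *Cd36* is at chr5:17781690-17888959, *Dgat1* at chr15:76502012-76512021 and *Vnn1* at chr10:23894688-23905344.

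*Plin2*, *Plin4*, *G0s2* and *Vnn1* rose with fasting at both ages, *Plin4* narrowly in aged mice. *Plin5*, *Angptl4* and *Dgat2* rose in young mice and did not pass in aged mice. At neither age was a change detected in the fatty acid carrier, the lipase and, at its brightest probe set, *Dgat1*. In aged mice 4 of the 10 genes rose and 0 fell, where 4.32% of all genes rose and 4.84% fell. These were *Vnn1* (2.76-fold), *G0s2* (1.67-fold), *Plin4* (1.64-fold) and *Plin2* (1.57-fold). In young mice 7 of 10 rose and 0 fell, where 10.7% of all genes rose and 12.5% fell. These were *Plin5* (3.95-fold), *Angptl4* (3.36-fold), *G0s2* (3.09-fold), *Vnn1* (2.51-fold), *Plin2* (1.93-fold), *Plin4* (1.84-fold) and *Dgat2* (1.41-fold). The median log2 fold change of the 10 genes was 0.68 in aged and 0.91 in young mice, beside -0.01 over all genes at either age. Counted over probe sets, 6 of 16 rose in aged and 11 of 16 in young mice, where 3.16% and 10.1% of all probe sets did. With a fold change of at least 1.5 also required, the same 4 aged genes remained (1.39% of all genes rose by this rule) and 6 young genes, without *Dgat2* (2.95%). The fasted mice lay above all ad libitum fed mice for 4 of the 10 genes in aged and 7 of the 10 in young mice, where 4.66% and 9.9% of all genes did so.

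**Figure D1:**
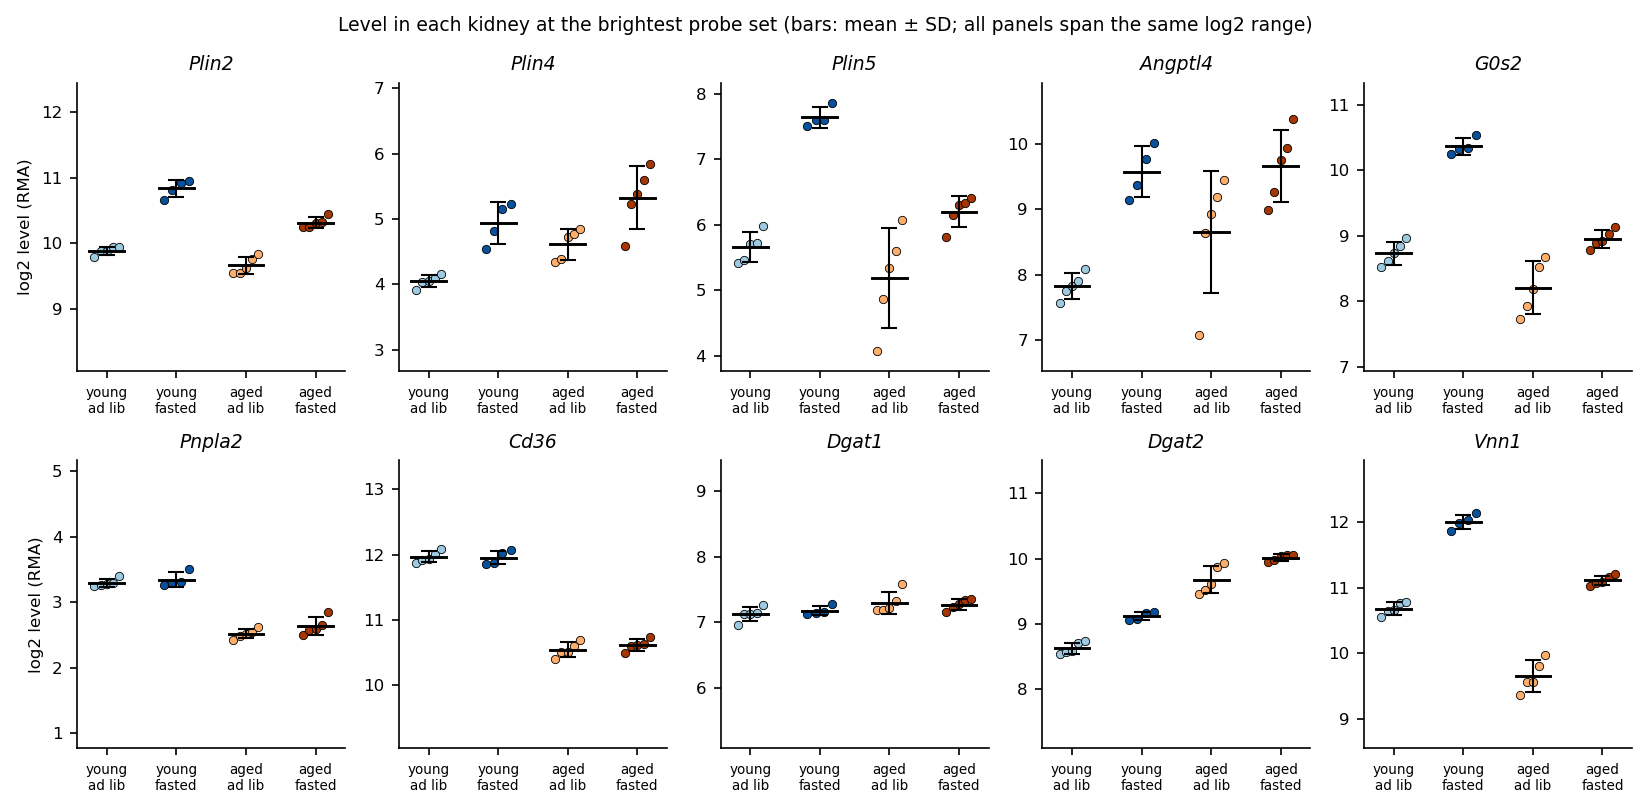
Log2 level (RMA) of each of the 10 genes at its brightest probe set in every kidney, by group; points are mice, horizontal bars the mean and vertical bars the SD, and every panel spans the same number of log2 units. Fasted and ad libitum fed mice do not overlap for Plin2, G0s2, Dgat2 and Vnn1 at either age, and Plin4, Plin5 and Angptl4 separate completely in young mice alone.

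*Plin2* encodes the coat protein found on droplets of most cells. In aged mice its log2 level was 9.54, 9.55, 9.62, 9.76 and 9.83 after ad libitum feeding and 10.24, 10.25, 10.30, 10.32 and 10.45 after fasting. In young mice it was 9.79, 9.87, 9.88, 9.93 and 9.94 after ad libitum feeding and 10.66, 10.81, 10.92 and 10.95 after fasting. The groups did not overlap at either age, and the spread within them was small. The log2 fold change was 0.65 (SE 0.08, limma adjusted p = 0.000291) in aged and 0.95 (SE 0.07, limma adjusted p = 5.67e-06) in young mice.

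*Plin5* encodes the perilipin of oxidative tissues, which sits on droplets next to mitochondria. In young mice its log2 level was 5.42, 5.47, 5.71, 5.72 and 5.99 after ad libitum feeding and 7.50, 7.60, 7.60 and 7.87 after fasting. This gap, a log2 fold change of 1.98 (SE 0.12, limma adjusted p = 1.05e-06), was the largest among the 10 young genes. In aged mice the level was 4.07, 4.87, 5.34, 5.61 and 6.07 after ad libitum feeding and 5.81, 6.16, 6.30, 6.34 and 6.41 after fasting. The ad libitum fed aged mice were widely scattered, with mouse37 lowest and mouse40 above 1 of the fasted mice, and the log2 fold change of 1.01 (SE 0.29) had a limma adjusted p of 0.0604. The second *Plin5* probe set rose at both ages, by 0.68 (SE 0.13, limma adjusted p = 0.00798) in aged and 1.30 (SE 0.12, limma adjusted p = 2.10e-05) in young mice, and its groups did not overlap. Without mouse40 the brighter probe set passed as well (1.23, limma adjusted p = 0.0132).

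*Plin4* encodes a perilipin that is most abundant in adipose tissue, and its kidney signal in ad libitum fed young mice lay below the median of each array. In young mice its log2 level was 3.91, 4.04, 4.05, 4.09 and 4.16 after ad libitum feeding and 4.54, 4.81, 5.15 and 5.23 after fasting, a rise of 0.88 (SE 0.13, limma adjusted p = 0.000534). In aged mice it was 4.34, 4.39, 4.72, 4.78 and 4.84 after ad libitum feeding and 4.58, 5.23, 5.39, 5.60 and 5.84 after fasting. Fasted mouse39 lay among the ad libitum fed mice, and the log2 fold change of 0.71 (SE 0.20) passed narrowly, with a limma adjusted p of 0.0497. The call was lost when any 1 of the other 9 aged arrays was left out (0.59 to 0.77, limma adjusted p = 0.0561 to 0.120), and it held without mouse39 (0.90, limma adjusted p = 0.00409). Its level moved with that of an adipocyte transcript, as described below.

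*G0s2* encodes the inhibitor of the triglyceride lipase made from *Pnpla2*. In young mice its log2 level was 8.53, 8.62, 8.74, 8.84 and 8.97 after ad libitum feeding and 10.25, 10.33, 10.35 and 10.55 after fasting. In aged mice it was 7.73, 7.93, 8.20, 8.53 and 8.68 after ad libitum feeding and 8.78, 8.89, 8.92, 9.02 and 9.13 after fasting. The groups were apart at both ages, by a wide gap in young mice and a narrow one in aged mice. The log2 fold change was 1.63 (SE 0.10, limma adjusted p = 1.05e-06) in young and 0.74 (SE 0.16, limma adjusted p = 0.0155) in aged mice.

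*Pnpla2* itself gave low signal, between 3.25 and 3.51 in young and between 2.43 and 2.85 in aged mice, below the median of every array, so that a change of this transcript may not be detectable with this probe set. Its log2 fold change was 0.04 (95% interval -0.10 to 0.19) in young and 0.12 (95% interval -0.05 to 0.28) in aged mice, with limma adjusted p of 0.729 and 0.459.

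*Angptl4* encodes a secreted inhibitor of lipoprotein lipase, the enzyme that frees fatty acids from circulating triglyceride. In young mice its log2 level was 7.57, 7.75, 7.83, 7.91 and 8.09 after ad libitum feeding and 9.15, 9.38, 9.76 and 10.02 after fasting, a rise of 1.75 (SE 0.16, limma adjusted p = 2.64e-05). In aged mice it was 7.08, 8.64, 8.92, 9.19 and 9.45 after ad libitum feeding and 8.99, 9.27, 9.76, 9.93 and 10.38 after fasting. The aged groups overlapped, and the aged log2 fold change of 1.01 had a wide 95% interval of 0.17 to 1.85 and a limma adjusted p of 0.169. Without ad libitum fed mouse37, whose level was lowest, it was 0.62. The second probe set read close to the bottom of the scale, between 2.20 and 3.15 in all kidneys, and gave 0.11 in aged (limma adjusted p = 0.503) and 0.28 in young mice (limma adjusted p = 0.0324).

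*Vnn1* encodes the pantetheinase that splits pantetheine into pantothenate, the vitamin precursor of coenzyme A, and cysteamine. In aged mice its log2 level was 9.36, 9.56, 9.57, 9.81 and 9.97 after ad libitum feeding and 11.03, 11.08, 11.09, 11.17 and 11.21 after fasting. In young mice it was 10.56, 10.65, 10.66, 10.77 and 10.78 after ad libitum feeding and 11.87, 12.00, 12.04 and 12.14 after fasting. All fasted mice lay more than 1 log2 unit above all ad libitum fed mice of their age. The rise was 1.46 (SE 0.10, limma adjusted p = 5.84e-06) in aged mice, the largest there among the 10 genes, and 1.33 (SE 0.07, limma adjusted p = 6.58e-07) in young mice.

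*Dgat1* and *Dgat2* encode the unrelated enzymes that add the last fatty acid in triglyceride synthesis. *Dgat2* was 8.54, 8.58, 8.59, 8.70 and 8.73 in ad libitum fed and 9.05, 9.07, 9.17 and 9.19 in fasted young mice, a rise of 0.49 (SE 0.06, limma adjusted p = 0.000233). In aged mice it was 9.46, 9.52, 9.61, 9.87 and 9.93 after ad libitum feeding and 9.94, 9.98, 10.03, 10.05 and 10.06 after fasting. The aged groups abutted without overlap, with a log2 fold change of 0.33 (SE 0.09, limma adjusted p = 0.0513). The second *Dgat2* probe set rose at both ages, by 0.36 (limma adjusted p = 0.0343) in aged and 0.54 (limma adjusted p = 0.00309) in young mice. Without aged mouse34 or mouse40 the brighter probe set passed too (0.38 and 0.40, limma adjusted p = 0.0386 and 0.0155).

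*Dgat1* gave log2 fold changes of -0.03 (95% interval -0.21 to 0.16) in aged and 0.05 (95% interval -0.10 to 0.20) in young mice at its brighter probe set, with limma adjusted p of 0.915 and 0.686. Its levels lay between 6.96 and 7.28 in young and between 7.16 and 7.58 in aged mice, with the groups overlapping. The dimmer *Dgat1* probe set rose in young mice by 0.29 (SE 0.09, limma adjusted p = 0.0393) and gave -0.01 in aged mice (limma adjusted p = 0.991), so the probe sets of this gene disagreed in young mice.

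*Cd36* encodes the fatty acid translocase of the plasma membrane and was bright in every kidney. At its brightest probe set the level was 11.88 to 12.08 in ad libitum fed and 11.86 to 12.07 in fasted young mice, and 10.40 to 10.70 and 10.49 to 10.74 in the aged groups. The groups overlapped nearly entirely, with log2 fold changes of -0.01 (95% interval -0.16 to 0.14) in young and 0.07 (95% interval -0.09 to 0.23) in aged mice. The other probe sets gave 0.08 and -0.04 in young and 0.24 and 0.14 in aged mice, and none of the 3 passed at either age (smallest limma adjusted p = 0.0817, in aged mice). The aged intervals therefore allow a rise of up to 0.40 at the *Cd36* probe set with the largest change.

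**Figure D2:**
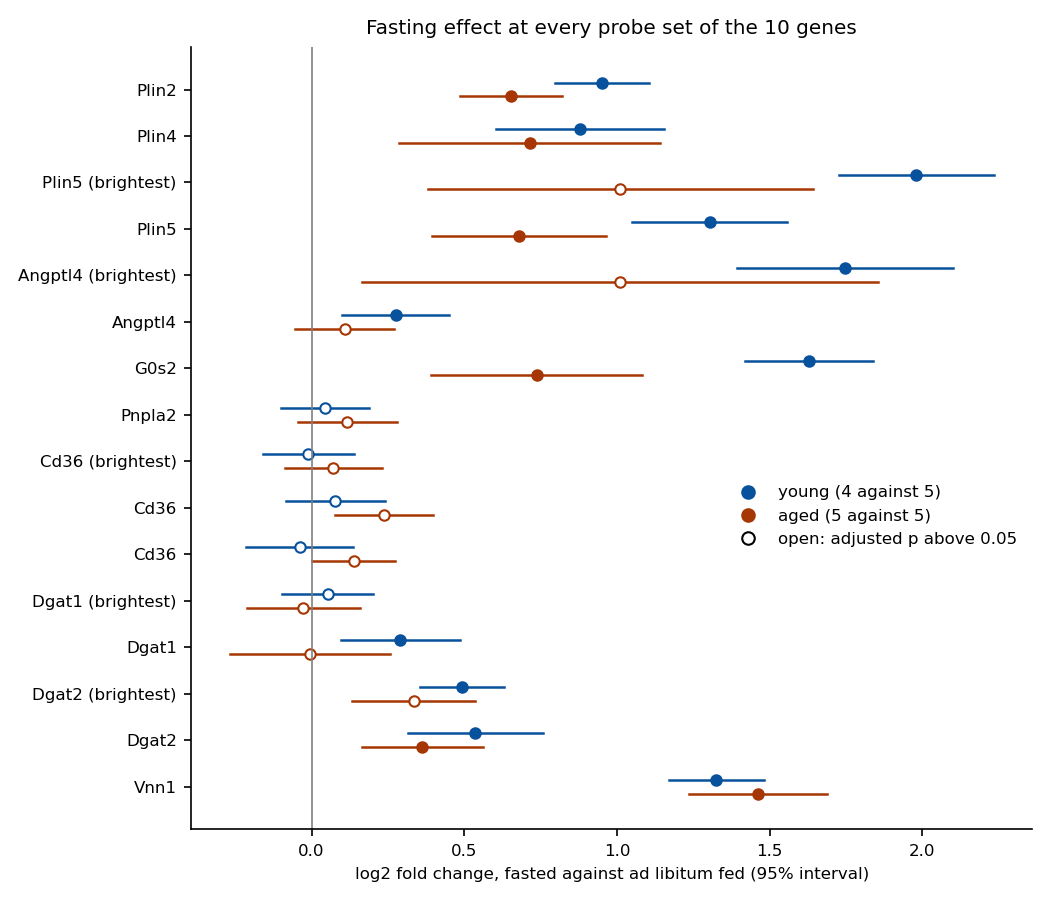
Log2 fold change of fasted against ad libitum fed mice at each of the 16 probe sets, with its 95% interval, in young (blue) and aged (red) kidneys; filled points have a limma adjusted p of at most 0.05. The 3 perilipin genes, Angptl4, G0s2, Dgat2 and Vnn1 lie to the right of 0 at both ages, and the Pnpla2 and the brightest Cd36 and Dgat1 probe sets have intervals that include 0 at both ages.

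The difference between the ages was tested in a fit of all 4 groups. Of the 10 genes 1 differed between the ages, where 2.44% of all genes did. *G0s2* rose less in aged mice, by -0.89 on the log2 scale (SE 0.20, 95% interval -1.32 to -0.47, limma adjusted p = 0.0263). The call did not hold without young ad libitum fed mouse346 (-0.84, limma adjusted p = 0.0528) or young fasted mouse344 (-0.83, limma adjusted p = 0.0660). *Plin5* differed by -0.97 (SE 0.35, limma adjusted p = 0.190) and its second probe set by -0.62 (SE 0.19, limma adjusted p = 0.0914). Without aged mouse37, the *Plin5* difference was -1.25 with a limma adjusted p of 0.0163.

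The differences of the other risers did not pass: *Plin2* gave -0.30 (95% interval -0.51 to -0.08, limma adjusted p = 0.163) and *Angptl4* -0.74 (95% interval -1.73 to 0.26, limma adjusted p = 0.556). *Plin4* gave -0.16 (95% interval -0.70 to 0.37) and *Dgat2* -0.16 (95% interval -0.40 to 0.08). *Vnn1* was the one riser with a larger estimate in aged mice, 0.14 (95% interval -0.14 to 0.41, limma adjusted p = 0.744). A p above the threshold does not show equal effects, and some of these intervals reach past 0.5 log2 units. If the ages were normalized separately, the shift between them cancels in such a difference only where it is a constant on the log2 scale.

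Perirenal fat adheres to kidneys, and perilipin transcripts are abundant in it, so the adipocyte transcripts *Adipoq* (adiponectin) and *Ucp1* (the uncoupling protein of brown fat) were read on each array. *Adipoq* was 5.61, 6.29, 6.65, 6.97 and 6.97 in ad libitum fed and 3.99, 8.33, 9.24 and 9.59 in fasted young mice. It was 4.00, 5.53, 6.44, 6.78 and 7.10 in ad libitum fed and 2.43, 6.91, 7.91, 8.33 and 8.53 in fasted aged mice. In each fasted group 1 kidney was low, young mouse344 and aged mouse39. The other fasted young kidneys lay above all ad libitum fed young kidneys. Of the other fasted aged kidneys mouse38 (6.91) lay inside the ad libitum fed range, and the rest lay above it. The log2 fold change of *Adipoq* did not pass at either age (0.85, limma adjusted p = 0.736 in aged and 1.29, limma adjusted p = 0.410 in young mice).

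*Ucp1* was 3.43 to 3.86 in ad libitum fed and 3.82, 3.86, 4.93 and 5.65 in fasted young mice. In aged mice it was 3.94, 4.98, 5.73, 7.35 and 7.58 after ad libitum feeding and 3.53, 5.51, 5.92, 6.36 and 6.48 after fasting. Of 12 listed fat markers 10 had a probe set. In young mice 3 rose (*Cidea*, *Cox8b* and *Slc36a2*) and 1 fell (*Cox7a1*), and in aged mice 0 rose and 1 fell (*Cox7a1*), beside the shares of all genes given above. The summed log2 level of the list was 12.4 to 12.7 in ad libitum fed and 12.6 to 12.9 in fasted young mice, and 12.4 to 12.6 and 12.5 to 12.7 in the aged groups, with *Cyp2e1*, which the kidney also makes, as its brightest member. The median log2 level over the 10 fat markers, which *Cyp2e1* does not dominate, was 3.74 to 4.44 in ad libitum fed young mice and 3.90, 5.84, 6.57 and 6.80 in fasted young mice, with mouse344 lowest. The aged medians were 3.97, 4.58, 5.41, 6.56 and 6.86 after ad libitum feeding and 3.42, 5.68, 5.96, 6.02 and 6.53 after fasting, with mouse37 and mouse39 lowest. *Adipoq* and the median and sum of the list were thus higher in 3 of 4 fasted young kidneys than in all ad libitum fed young kidneys. This did not hold for every marker, as *Ucp1* in fasted mouse340 equalled that of ad libitum fed mouse347 (3.86). The aged groups overlapped. These fat marker names beyond *Adipoq* and *Ucp1* are given because so few passed.

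*Plin4* moved with *Adipoq* among the fasted kidneys. The low fasted kidneys by *Adipoq* were also the lowest fasted kidneys by *Plin4*, at 4.54 in young mouse344 and 4.58 in aged mouse39. With the *Adipoq* level as a covariate the rise of *Plin4* was 0.57 (limma adjusted p = 0.00433) in aged and 0.73 (limma adjusted p = 0.000153) in young mice. With *Ucp1* as the covariate it was 0.79 (limma adjusted p = 0.00541) and 0.61 (limma adjusted p = 0.00516). With mouse344 as the lone fasted young array the rise of *Plin4* was 0.48 (limma adjusted p = 0.0295) against 0.88 with all arrays, and this fit assumes that the lone array varies like the ad libitum fed ones.

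For other members the kidneys with little *Adipoq* differed by age and gene. Young mouse344, the fasted kidney with the least *Adipoq*, had the highest *Angptl4* (10.02), *G0s2* (10.55) and *Vnn1* (12.14) of its group, and its *Plin5* (7.60) and *Plin2* (10.92) lay inside the range of the other fasted mice, while at the second *Plin5* probe set it was the lowest of them (5.23). Set against the ad libitum fed mice alone, mouse344 gave log2 fold changes of 1.94 for *Plin5*, 2.19 for *Angptl4*, 1.81 for *G0s2* and 1.03 for *Plin2*.

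In aged mice, ad libitum fed mouse37 (*Adipoq* 4.00) and fasted mouse39 (2.43) can be set side by side as the kidneys with the least *Adipoq* of their groups. From the former to the latter *Plin2* went from 9.54 to 10.25, *Plin5* from 4.07 to 6.16, *Angptl4* from 7.08 to 8.99 and *Vnn1* from 9.57 to 11.17, while *Plin4* went from 4.39 to 4.58. This pair of single mice carries no test. Mouse37 was also the ad libitum fed kidney with the lowest *Plin2*, *Plin5* and *Angptl4* of its group, while its *G0s2* (8.20) and *Vnn1* lay in the middle. In that group mouse40, with the most *Adipoq*, had the highest *Plin2* (9.83), *Plin5* (6.07), *G0s2* (8.68), *Dgat2* (9.93) and *Vnn1* (9.97). It did not have the highest *Plin4* or *Angptl4*. Mouse39 had the lowest *Angptl4* and *G0s2* (8.78) of the fasted aged kidneys. The part of fat in the spread of these transcripts was not tested beyond the covariates given here.

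With *Adipoq* as a covariate 4 aged and 7 young members rose, and with *Ucp1* 5 aged and 7 young members rose. The shares of all genes that rose in these fits were not counted, so the counts describe the members alone. In aged mice the log2 fold change of *Plin5* was 0.90 (limma adjusted p = 0.0912) with *Adipoq* and 1.11 (limma adjusted p = 0.0160) with *Ucp1*, and that of *Angptl4* was 0.82 (limma adjusted p = 0.218) and 1.13 (limma adjusted p = 0.0738). *Plin2*, *G0s2* and *Vnn1* rose under both covariates at both ages, with *Vnn1* at 1.46 in aged mice under either.

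**Figure D3:**
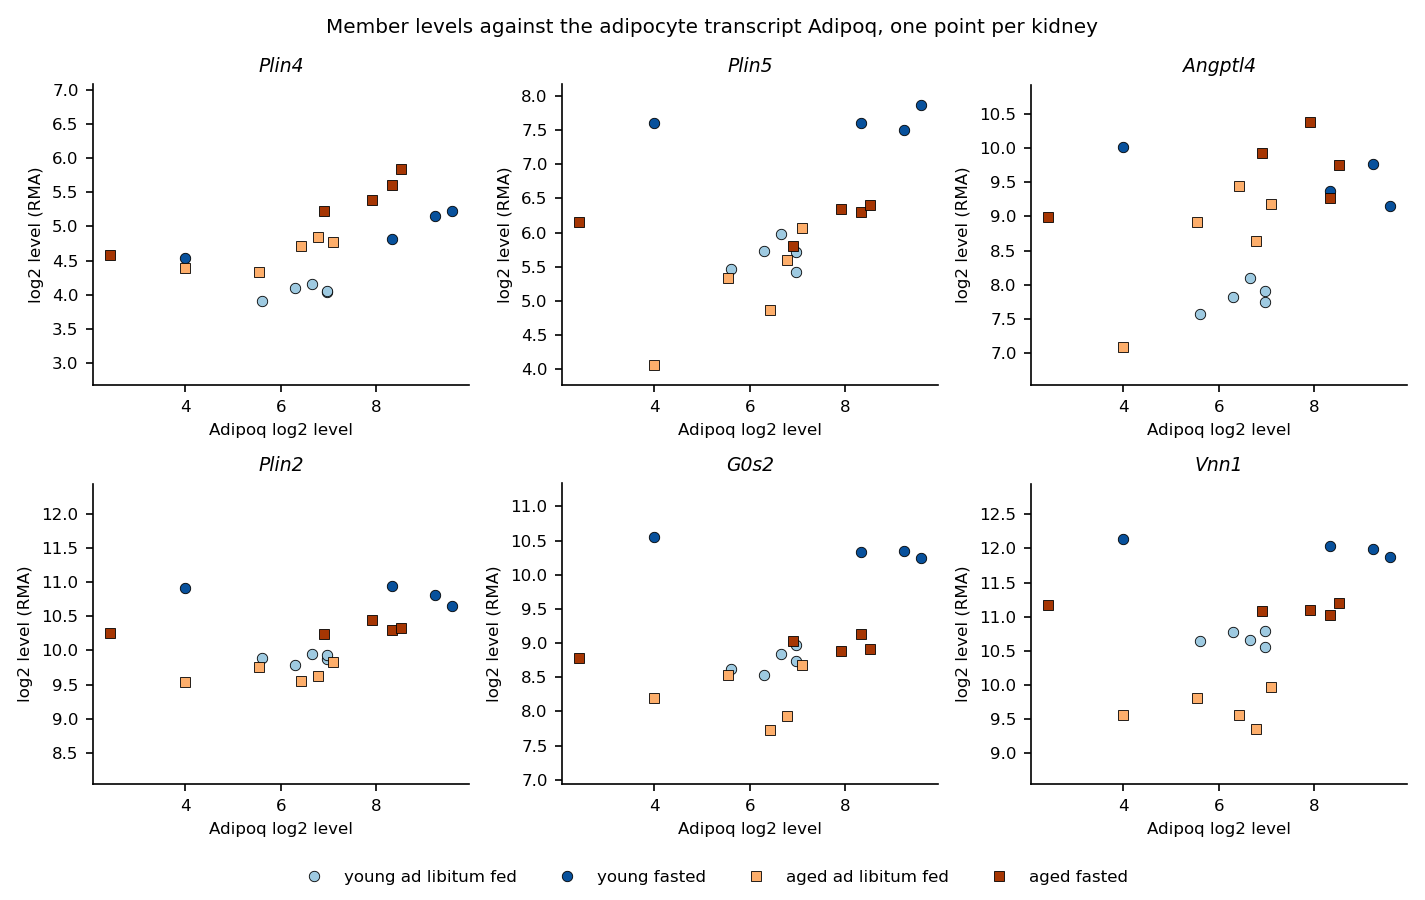
Log2 level (RMA) of 6 genes against the log2 level of Adipoq in the same kidney, with young mice as circles, aged mice as squares and fasted mice in the darker colour; every panel spans the same number of log2 units on its vertical axis. The fasted kidneys with the least Adipoq (3.99 in young mouse344 and 2.43 in aged mouse39) have the least Plin4 of their groups but lie above all ad libitum fed kidneys of their age for Plin2, G0s2 and Vnn1.

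Transcripts of other tissues were read as well. *Alb*, the liver's albumin transcript, stood at 12.58 in aged fasted mouse33 and between 5.41 and 8.86 in the other aged kidneys, and the summed log2 level of 9 liver markers was 14.0 in that kidney. The other 4 fasted aged kidneys summed to between 10.91 and 11.004, below all ad libitum fed aged kidneys at 11.6 to 11.7. Such a sum follows its brightest members. The median log2 level over the 9 markers was 4.98 to 6.06 in these 4 kidneys, inside the ad libitum fed aged range of 4.86 to 7.93. With all aged arrays the log2 fold change was positive for 8 of the 9 markers and negative for 1. With *Alb* as a covariate 3 aged members rose, without *Plin4* (0.68, limma adjusted p = 0.0602), and 7 young members rose. The share of all genes that rose with this covariate was not counted. Of the liver markers 2 rose and 1 fell in young mice and 0 rose or fell in aged mice. Of 8 macrophage markers 5 fell and 0 rose in young mice, and 1 fell in aged mice. Their part in the member results was not tested. Beside these marker counts, 10.7% of all genes rose and 12.5% fell in young mice. In aged mice 4.32% of all genes rose and 4.84% fell.

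The wider machinery was described with a list of 85 other genes of triglyceride and droplet metabolism, of which 75 had a probe set. In aged mice 15 rose (20.0%) and 11 fell (14.7%), and in young mice 24 rose (32.0%) and 14 fell (18.7%), against 4.32% and 4.84% of all genes in aged and 10.7% and 12.5% in young mice. The median log2 fold change of the list was 0.04 in aged and 0.06 in young mice, so the list held risers and fallers rather than a common shift. The count of aged risers was 9 without mouse37, and that of aged fallers was 6 without mouse37, 7 without mouse38 or mouse39 and 4 without mouse41. With a fold change of at least 1.5 required, 7 rose and 1 fell in aged mice and 12 rose and 5 fell in young mice, where 1.39% and 1.28% of all genes did in aged and 2.95% and 3.53% in young mice.

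Of 13 droplet coat and assembly genes, 2 rose and 4 fell in aged and 3 rose and 4 fell in young mice. Counts by role, here and below, stand beside 4.32% risers and 4.84% fallers among all genes in aged mice. In young mice these shares were 10.7% and 12.5%. *Fitm1*, which helps triglyceride enter new droplets, rose by 1.53 (SE 0.21, limma adjusted p = 0.000934) in aged and 1.41 (SE 0.11, limma adjusted p = 6.25e-06) in young mice. Its homologue *Fitm2*, named after its values were seen, rose by 0.67 and 0.88. *Cideb*, a protein that enlarges droplets and lipoproteins in liver, fell by 0.45 and 0.59. *Hsd17b13*, a droplet-bound dehydrogenase, fell by 0.58 in aged mice (limma adjusted p = 0.00733) and did not pass in young mice (limma adjusted p = 0.985). This difference between ages passed (-0.58, limma adjusted p = 0.0273). In young mice its signal lay between 2.91 and 3.13, below the median of every young array, so a fall may not be detectable there. The second *Hsd17b13* probe set gave 0.27 in aged mice (limma adjusted p = 0.748) and a difference of 0.26 (limma adjusted p = 0.860), so the probe sets disagreed.

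*Cidea*, which is also a marker of brown fat, rose in young mice by 2.84 (SE 0.78, limma adjusted p = 0.0245), and the fasted kidneys stood at 3.25, 6.51, 6.71 and 8.56, with mouse344 lowest. *Plin3*, the other widely made perilipin, gave 0.03 in aged and 0.10 in young mice, and *Hilpda*, a small inhibitor of the same lipase as *G0s2*, gave 0.14 and 0.20, with neither passing. *Plin1* and *Cidec*, the coat genes of fat cells, were not analysed here.

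Among 11 lipolysis genes 4 rose and 4 fell in aged and 6 rose and 3 fell in young mice. *Lipe*, hormone-sensitive lipase, rose in young mice by 0.86 (SE 0.13, limma adjusted p = 0.000964) and gave 0.64 in aged mice (limma adjusted p = 0.0843). Its level ordered the fasted kidneys of each age as *Adipoq* did, from 4.95 in mouse344 to 5.61 in mouse339 in young mice. In aged mice it ran from 4.92 in mouse39 to 5.96 in mouse41. Mouse344 still lay above all ad libitum fed young mice (4.04 to 4.52). The part of fat in the *Lipe* values was not tested. *Mgll*, which releases the last fatty acid, rose by 0.79 in young mice (limma adjusted p = 0.000589) and gave 0.29 in aged mice (limma adjusted p = 0.0566). *Abhd5*, the activator of the *Pnpla2* lipase and thus the counterpart of *G0s2*, fell by 0.37 (SE 0.09, limma adjusted p = 0.0246) in aged and by 0.38 (SE 0.07, limma adjusted p = 0.00341) in young mice. *Abhd5* stood at 8.24 to 8.58 in ad libitum fed and 7.91 to 8.05 in fasted young mice. In the aged groups it stood at 7.59 to 8.02 and 7.35 to 7.54, with no overlap at either age at this probe set. The second *Abhd5* probe set gave -0.39 in aged mice (limma adjusted p = 0.0254) and -0.18 in young mice (limma adjusted p = 0.144, not passing). Its groups overlapped at both ages. *Lipa*, the acid lipase of lysosomes, fell by 0.31 and 0.67, and *Aadac*, an arylacetamide deacetylase, fell by 0.38 and 0.30. The largest aged riser of this role, named after its values were seen, was the carboxylesterase *Ces1d*, which rose by 0.72 (SE 0.10, limma adjusted p = 0.00103) in aged and 0.55 (SE 0.07, limma adjusted p = 0.000196) in young mice.

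Of 17 triglyceride synthesis genes 5 rose and 0 fell in aged and 8 rose and 1 fell in young mice. *Mogat2*, a monoacylglycerol acyltransferase, rose in young mice by 1.33 (SE 0.15, limma adjusted p = 0.000138) and gave 0.88 in aged mice (limma adjusted p = 0.0556). *Gpd1*, which supplies glycerol 3-phosphate, rose in young mice by 0.84 (SE 0.07, limma adjusted p = 1.51e-05) and gave 0.13 in aged mice, and the difference between ages passed (-0.71, limma adjusted p = 0.000745). *Acsl3*, an acyl-CoA synthetase of nascent droplets, fell by 0.43 in young mice. The largest aged riser here that passed, also named after its values were seen, was the phosphatidate phosphatase *Lpin2*, which rose by 0.66 (SE 0.09, limma adjusted p = 0.000623) in aged and 0.75 (SE 0.07, limma adjusted p = 2.16e-05) in young mice.

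Of 15 genes of fatty acid uptake and lipoprotein release, 2 rose and 1 fell in aged and 3 rose and 3 fell in young mice. The aged faller made up 6.67%, near the 4.84% of all genes. *Lpl*, the lipoprotein lipase that the *Angptl4* protein inhibits, was 12.48, 12.59, 12.72, 12.73 and 12.75 in ad libitum fed and 11.83, 11.90, 11.99 and 12.01 in fasted young mice, a fall of 0.72 on the log2 scale (SE 0.07, limma adjusted p = 4.59e-05). In aged mice it was 11.04 to 11.67 and 11.17 to 11.48, with a log2 fold change of -0.07. The difference between ages was 0.65 (limma adjusted p = 0.0202). *Gpihbp1*, the endothelial anchor of that lipase, rose by 0.42 in young mice (limma adjusted p = 0.00370) and gave -0.06 in aged mice.

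*Apob*, the structural protein of triglyceride-rich lipoproteins, rose by 0.40 in aged and 1.14 in young mice, with a difference of -0.73 (limma adjusted p = 0.00149). *Slc27a1*, a fatty acid transport protein, rose by 0.89 and 0.83, and its relative *Slc27a4* fell by 0.36 at both ages. Over the 75 genes, the difference between ages was positive for 1 (*Lpl*) and negative for 4, *Apob*, *Gpd1*, *Hsd17b13* and *Rxra*, the last of which, at -0.41 (limma adjusted p = 0.0422), is named because of the small count. Among all genes, 1.55% had a positive and 0.895% a negative difference.

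Of 11 coenzyme A genes 0 rose and 2 fell in aged and 2 rose and 2 fell in young mice. The young shares were 18.2% each, beside 10.7% and 12.5% of all genes. *Pank2*, a pantothenate kinase, fell by 1.22 (SE 0.18, limma adjusted p = 0.00163) in aged and by 1.86 (SE 0.15, limma adjusted p = 1.01e-05) in young mice, while *Vnn1* rose. *Nudt7*, a coenzyme A diphosphatase of peroxisomes, rose by 0.72 in young mice, *Ppcdc*, a decarboxylase of coenzyme A synthesis, rose by 0.42, and *Nudt19*, another diphosphatase, fell by 0.40 there. *Vnn3*, a paralogue of *Vnn1*, gave 0.04 and 0.10 and did not pass. Of 8 genes of PPAR signalling 2 rose and 0 fell in aged and 2 rose and 1 fell in young mice. The young faller made up 12.5%, the same share as among all genes. *Ppara*, the receptor itself, rose by 0.87 (SE 0.09, limma adjusted p = 0.000152) in aged and 1.01 (SE 0.09, limma adjusted p = 1.45e-05) in young mice. The coactivator *Ppargc1b* rose by 0.42 and 0.41, and *Ppard* fell by 0.78 in young mice.

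**Figure D4:**
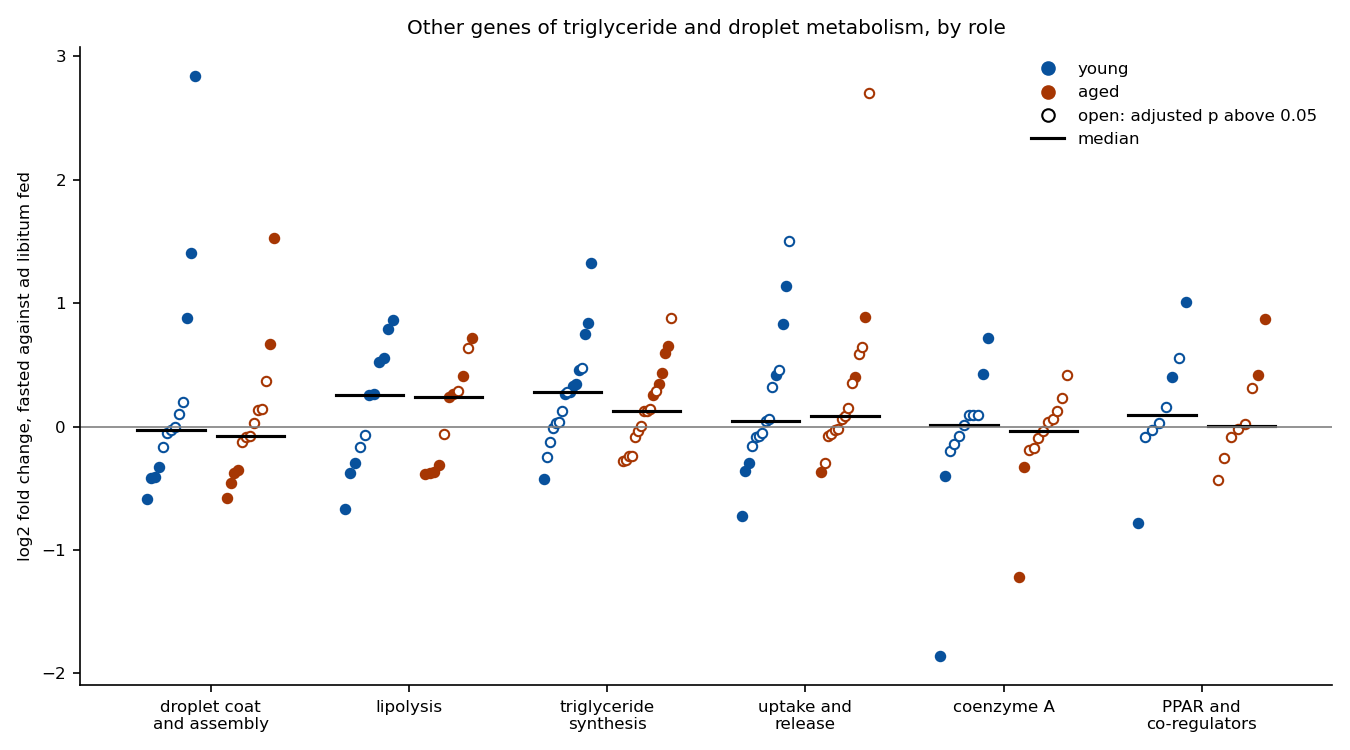
Log2 fold change of fasted against ad libitum fed mice for the 75 other lipid genes by role, young in blue and aged in red, with filled points at a limma adjusted p of at most 0.05 and horizontal bars at the median of each role. Medians lie near 0 in most roles, filled points lie on both sides of 0, and the highest open aged point is Fabp1, at 2.71 with a limma adjusted p of 0.0591 and named after its value was seen.

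The genes most like *Plin2*, *Plin5* and *Angptl4* were found by the root mean square difference of log2 levels over all 19 arrays, after each gene was centred on the ad libitum fed mean of its age. For *Plin2* they were *Acot12* (0.119), *Cyp2d9* (0.125) and *Decr1* (0.128). For *Plin5* they were *Abhd15* (0.348), *Cp* (0.386) and *Lgals4* (0.396), and for *Angptl4* they were *Klf11* (0.437), *Lgals4* (0.450) and *Plin5* (0.471). The last pair means that *Plin5* was, of all other named genes, the third closest to *Angptl4*, with log2 fold changes of 1.01 in both for aged mice and 1.98 against 1.75 in young mice. Distances for *Plin2* are the smaller ones, as its values spread less.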

How the data were processed

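Kidney RNA of each mouse was read on 1 Affymetrix HT MG-430 PM array. The authors deposited log2 values for 45141 probe sets, background-corrected and normalized by RMA (version not given in the sources used here). Statistics were computed from these values with limma 3.58.1 in R 4.3.3, within each age for fasting and in 1 fit of 4 group means for the difference between ages (3 comparisons), with p values adjusted over the whole array by the Benjamini-Hochberg method. Scripts were tested on simulated data. In the annotation 28898 probe sets had 1 gene symbol, 551 several and 15692 none listed. A probe set can bind related transcripts. RMA compresses changes of dim probe sets, and the number of arrays limits the precision.

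Members and gene lists were chosen with earlier results of these data known. Named genes are all members, up to 2 risers and 2 fallers with the largest change in each role among those that passed, partners of members, and 3 most similar genes. Alternatives were no moderation, all arrays in 1 fit, array weights, trend with robust fitting, quantile normalization, median centring, removal of the lowest 40 percent, a fold minimum, the mean of a gene's probe sets, *Adipoq*, *Ucp1* or *Alb* as covariate, and leaving out arrays. Promoter windows were taken from RefSeq (GRCm38.p6). A planned protein comparison was not run.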

Additional observations from a re-analysis of the deposited data

Results flagged for a closer look

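*G0s2* differed between the ages in the size of its rise, by -0.892 on the log2 scale (aged minus young), by the test of the difference itself. Of 64 groups tested (16 probe sets in 4 groups), 2 held a kidney that stood apart from the rest of its group. This is a smaller share than the about 1 in 20 that chance gives. At the *Pnpla2* probe set, young ad libitum fed mouse347 was highest at 3.40, with the others between 3.25 and 3.29. At a *Cd36* probe set, young ad libitum fed mouse348 was lowest at 11.32, with the others between 11.45 and 11.48. Neither gene rose or fell, and the cause was not tested.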

How the results depend on the processing

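Of the members' effects under alternatives, 690 kept direction and side of the threshold, 19 lost the call, 14 gained it and 14 changed sign. In young mice 7 members rose in every alternative with more than 1 fasted array, except the fold minimum (6). In aged mice 2 to 6 did. Shares of all genes were counted for the main fits and the fold minimum only. *Plin2* and *Vnn1* passed at both ages in all alternatives run. *Plin4* in aged mice lost its call in 13 of 22, and *Angptl4* in aged mice passed in none (limma adjusted p = 0.0561 to 0.335). In aged mice *Plin5* gained a call in 6 of 22 (limma adjusted p = 0.00928 in 1 fit of all arrays to 0.0453 with the lowest 40 percent removed) and *Dgat2* in 7 of 22 (0.00833 to 0.0431 in the same settings). Without moderation 2 aged members rose (*G0s2* 0.74, ordinary t test adjusted p = 0.0751). Of the members 0 then differed between ages (*G0s2*, ordinary t test adjusted p = 0.0729). Without young mouse339, mouse340 and mouse343 the *G0s2* difference was -1.07. Leaving out 1 array, the negative differences among members numbered 0 (without mouse346 or mouse344) to 2 (without mouse37), the aged wider list had 9 to 19 risers and 4 to 11 fallers, and its differences numbered 0 to 2 positive (0 without mouse340, 2 without mouse34 or mouse40) and 2 to 6 negative (2 without mouse350, mouse339 or mouse344). For the wider list the fold minimum gave 7 and 1 in aged and 12 and 5 in young mice, the mean of probe sets gave 2 positive and 2 negative differences, no moderation gave 2 negative, and without the 3 young fasted arrays 13 rose, 6 fell, 0 were positive and 1 negative.

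Sign changes were all of effects that never passed: *Dgat1* in aged mice (0.0231 with array weights, -0.0565 to 0.0447 without 1 array), *Cd36* in young mice (0.00336 with weights, 0.00954 as the mean of probe sets, -0.0490 to 0.0221 without 1 array), *Pnpla2* in young mice (-0.0107 to 0.0716 without 1 array; difference -0.0921 without 3), and the *Plin4* difference (0.12 with *Ucp1*, 0.23 without 3, -0.297 to 0.0216 without 1 array). The cause was not tested. No paired analysis was possible because the labels name no pairs. The paper describes matching mice in pairs by weight and sex before assignment, and whether this held for the array mice is not stated. *Pnpla2* had no value with the lowest 40 percent removed.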
